A study of Homo sapiens with 54 samples.

Results

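The 10 genes described here carry anticancer drugs or platinum across cell membranes. They are the drug efflux pumps ABCB1, ABCC1, ABCC2, ABCC3, ABCC4 and ABCG2, the copper transporters SLC31A1 and SLC31A2, and the copper-exporting ATPases ATP7A and ATP7B. They were taken by gene symbol from the 27470 genes in the table, and each symbol had 1 row. RNA was sequenced from the ends of transcripts in 2 triple negative breast cancer (TNBC) cell lines, SUM1315, which is BRCA1 mutant, and MDA-MB-468, which is BRCA1 wild type. Each line was studied as parental cells and as an olaparib resistant (OlaR) derivative, and was exposed or not to cisplatin (CDDP), in 18 conditions with 3 libraries each (54 libraries). The study asked which transcripts change as resistance to olaparib is acquired and whether this bears on the response to CDDP.

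Parental SUM1315 cells were left untreated, treated overnight with 8 µM olaparib, with 2 or 4 µM CDDP, or with olaparib and either CDDP dose. Parental MDA-MB-468 cells received 3 µM olaparib and 1 or 2.5 µM CDDP in the same scheme. OlaR SUM1315 cells were kept in 25 µM olaparib and OlaR MDA-MB-468 cells in 15 µM olaparib, and both were left so or treated with the same CDDP doses as their parental line. All OlaR libraries therefore come from cells in olaparib, there is no drug-free OlaR group, and each OlaR derivative is a single model of its line. OlaR cells differed from olaparib-treated parental cells in resistance, in olaparib dose and in length of exposure, and these cannot be told apart. The higher MDA-MB-468 dose of CDDP is 2.5 µM in the sample names and 2 µM in the text on the series' design, and the sample name was followed. Nothing says that the 3 libraries of a condition came from separate cultures, so the p-values below measure the spread between libraries, which may be technical.

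ATP-binding cassette (ABC) pumps use ATP to push drugs and their conjugates out of cells. ABCB1, also called P-glycoprotein or MDR1, exports many bulky hydrophobic drugs, among them olaparib. ABCG2 (BCRP) exports a further range of anticancer drugs, and the ABCC family (MRP1 to MRP4 for ABCC1 to ABCC4) exports organic anions and drugs joined to glutathione, glucuronide or sulphate. Cisplatin is not a typical ABCB1 substrate, but it binds glutathione and copper-binding proteins. It can enter cells through the copper importer SLC31A1 (CTR1), and ATP7A and ATP7B can move or sequester it as they do copper.

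Promoter windows of 5 members on which the results turn are printed here, so that the letters upstream of the genes that moved can be read beside their values. Each holds the 250 bases before the start of the main transcript and its opening 50 bases (300 bases in all, RefSeq, GRCh38.p14), 5′ to 3′ on the gene's own strand. Of the 10 members, 6 had such a window in the table used. Capitals mark matches, on either strand, to 5 short motifs: the GC box GGGCGG, the CCAAT box, the E box CACGTG, the core of the metal response element (TGCACNC or TGCGCNC) and the core of the antioxidant response element (TGACNNNGC). Among 35116 windows of the same length, these were found in 45.0%, 34.6%, 7.26%, 29.6% and 13.3%, so a match describes the letters only and is no evidence of a bound site.
ABCB1, chr7:87600835-87601134, minus strand: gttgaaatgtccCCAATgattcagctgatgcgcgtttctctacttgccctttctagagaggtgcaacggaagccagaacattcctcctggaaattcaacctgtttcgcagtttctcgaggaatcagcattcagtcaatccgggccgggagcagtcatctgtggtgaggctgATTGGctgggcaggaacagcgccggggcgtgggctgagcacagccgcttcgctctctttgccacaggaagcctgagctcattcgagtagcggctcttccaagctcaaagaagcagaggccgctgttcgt
ABCG2, chr4:88158590-88158889, minus strand: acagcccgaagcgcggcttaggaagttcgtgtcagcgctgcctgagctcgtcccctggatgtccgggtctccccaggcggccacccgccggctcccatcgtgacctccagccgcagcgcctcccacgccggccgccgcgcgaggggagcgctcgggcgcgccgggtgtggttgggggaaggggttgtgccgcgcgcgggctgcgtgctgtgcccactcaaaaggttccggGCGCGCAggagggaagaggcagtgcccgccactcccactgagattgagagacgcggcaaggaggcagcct
ABCC2, chr10:99782390-99782689, plus strand: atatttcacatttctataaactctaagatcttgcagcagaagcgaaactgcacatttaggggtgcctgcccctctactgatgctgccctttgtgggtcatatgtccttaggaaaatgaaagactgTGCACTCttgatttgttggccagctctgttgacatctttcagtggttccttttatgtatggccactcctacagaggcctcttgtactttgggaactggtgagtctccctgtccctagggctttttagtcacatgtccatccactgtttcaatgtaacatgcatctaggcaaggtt
ABCC4, chr13:95301402-95301701, minus strand: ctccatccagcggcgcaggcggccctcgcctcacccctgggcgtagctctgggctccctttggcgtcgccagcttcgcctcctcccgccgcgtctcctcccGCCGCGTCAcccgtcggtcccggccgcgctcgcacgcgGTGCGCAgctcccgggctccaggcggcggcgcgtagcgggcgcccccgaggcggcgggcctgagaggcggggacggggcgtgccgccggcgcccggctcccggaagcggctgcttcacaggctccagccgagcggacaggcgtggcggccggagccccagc
SLC31A1, chr9:113221294-113221593, plus strand: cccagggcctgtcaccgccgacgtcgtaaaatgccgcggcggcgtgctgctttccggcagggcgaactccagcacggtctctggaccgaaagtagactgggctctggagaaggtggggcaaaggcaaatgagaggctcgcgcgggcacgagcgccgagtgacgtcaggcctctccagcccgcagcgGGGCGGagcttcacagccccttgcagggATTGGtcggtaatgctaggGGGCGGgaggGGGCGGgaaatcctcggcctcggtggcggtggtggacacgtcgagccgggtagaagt
ABCB1 held 2 CCAAT boxes and none of the other 4 motifs. SLC31A1 held 3 GC boxes and 1 CCAAT box. A metal response core was present in each of ABCC2, ABCC4 and ABCG2, and ABCC4 also held 1 antioxidant response core. The window of ATP7A, which is not printed, held 1 E box.

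Values are adjusted read counts: the authors brought each library's gene counts to a common library size shared by all libraries, with the adjustment based on the means of its condition. Because reads were taken near transcript ends and are not divided by length, levels are compared between samples for a gene and not between genes. From 4977284 to 7540920 reads lay behind each parental SUM1315 library and 3446613 to 4665505 behind each OlaR one. For MDA-MB-468 the ranges were 5574767 to 9268162 and 2070301 to 4676284. OlaR libraries were thus shallower, and 3 reads, the most that a count of 0 allows, correspond to 1.75 to 3.39 adjusted counts in parental libraries and to 3.58 to 7.89 in OlaR libraries. These limits cover counting error only, and the part of depth in the results was not tested. All 5 mesenchymal markers were present in SUM1315 (a median VIM of 11900 in parental libraries). Of the 5 luminal or general epithelial ones, EPCAM, CDH1 and KRT19 had medians of 0 there and KRT8 and KRT18 of 61 and 322. All 5 epithelial markers were present in MDA-MB-468 (a median KRT19 of 13400 and EPCAM of 2920). Marker levels moved with OlaR. Summed basal markers ranged from 1780 to 3060 in parental and 2790 to 4850 in OlaR SUM1315 libraries, and from 2810 to 3460 and 5470 to 6520 in MDA-MB-468. In SUM1315 the median of KRT17 was 828 in parental and 2660 in OlaR libraries, and summed mesenchymal markers ranged from 15400 to 18700 and from 12100 to 14400. In MDA-MB-468 the median of KRT5 was 423 and 3350. Not every marker moved with its sum. The median of EGFR, a basal marker, was 801 in parental and 412 in OlaR SUM1315 libraries, and 2420 and 1760 in MDA-MB-468. That of FN1, a mesenchymal marker, was 1570 in parental and 2260 in OlaR SUM1315 libraries. The part of these shifts in the results was not tested. Leukocyte markers summed to at most 15.7 and hepatocyte markers to at most 11.3 in any library. Of the 4 endothelial markers, PECAM1 was present in SUM1315 at a median of 169 in parental and 71.7 in OlaR libraries, and CDH5, VWF and KDR had medians of 0 there. In MDA-MB-468 the median of KDR was 6.98 in parental and 39.8 in OlaR libraries. Among receptors low in TNBC, PGR had medians of 0. The median of ESR1 was 44.4 in parental and 167 in OlaR MDA-MB-468 libraries, and 3.31 and 0.0697 in SUM1315. That of ERBB2 was 30.6 and 12.7 in MDA-MB-468, and 31 and 57 in SUM1315. Libraries were multiplexed in batches of 27, and it is not stated which libraries shared a batch. Differences between the lines, and between OlaR and parental cells, therefore cannot be told apart from batch. In bulk RNA, fewer cells that express a gene and less RNA per cell cannot be told apart either.

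In SUM1315 cells, OlaR libraries held more ABCB1 and ABCG2 and less ABCC1, ABCC2, ABCC3, SLC31A1 and ATP7A than parental libraries under olaparib. A gene was called changed at an adjusted p of at most 0.05 (limma, Benjamini-Hochberg adjustment over all genes tested). By this rule 7 of the 10 members changed, 2 upward and 5 downward, while 47.2% of all 13133 genes tested changed (21.6% upward and 25.7% downward). ABCB1 is counted among the 2 upward here and in the other OlaR comparisons of this line, although it entered the fit only through OlaR libraries. The members' median log2 difference was -0.52 and that of all genes tested was -0.045. A change of at least 2-fold was reached by 4 members and by 16.6% of all genes. OlaR libraries were also set against untreated parental libraries, and the same OlaR libraries serve both comparisons.

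ABCB1 was close to undetected in parental SUM1315 cells and present in all 9 OlaR libraries. It lies on the minus strand of chromosome 7 (chr7:87503017-87713323, GRCh38, 28 exons in its main transcript). Its 3 untreated parental libraries held 0.902, 0.00554 and 1.03 adjusted counts, and its 3 olaparib-treated parental libraries held 0.903, 4.47 and 0. OlaR libraries without CDDP held 18.4, 5.8 and 25.2. The value of 5.8 came from 2 reads in a library where 3 reads correspond to 5.2 adjusted counts. The value of 4.47 came from 5 reads in a library where 3 reads correspond to 2.56. Scaled by depth alone, the lowest OlaR library therefore did not lie above the highest of these parental libraries. With 2 µM CDDP the OlaR values were 13.0, 5.69 and 13.5, and with 4 µM they were 17.3, 10.3 and 20. Across all treatments the 18 parental libraries ranged from 0 to 5.99, with 39 reads in all, and the 9 OlaR libraries from 5.69 to 25.2, with 88 reads. The log2 difference between OlaR and olaparib-treated parental cells was 2.79 ± 0.71 (SE, n = 3 and 3, adjusted p = 0.00157) and against untreated parental cells it was 3.26 ± 0.71 (adjusted p = 2.23e-04). From the reads themselves, 31 in OlaR against 6 in olaparib-treated libraries, the ratio after allowing for depth was 9.09 (95% counting interval 3.74 to 26.6). Against the 2 reads of untreated libraries the ratio was 25.6 (6.51 to 221). These are few reads, and ABCB1 passed the filter on low values only through OlaR: a value of at least 10 was reached in 7 libraries, all of them OlaR. Its differences and p-values in the OlaR comparisons of this line are therefore a description rather than a test.

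ABCG2 (chr4:88090150-88231628, minus strand, 16 exons) rose as well. Untreated parental libraries held 76.3, 85.8 and 69.4 adjusted counts, olaparib-treated ones 128, 83.5 and 112, and OlaR libraries 187, 204 and 248. The 3 sets do not overlap between OlaR and either parental group, and OlaR was higher than olaparib-treated cells by 0.99 ± 0.17 on the log2 scale (adjusted p = 1.37e-05). Against untreated cells the log2 difference was 1.45 ± 0.17 (adjusted p = 9.93e-09). Under olaparib with 4 µM CDDP, parental libraries held 129, 125 and 149 and OlaR libraries 258, 257 and 331. In each of these 3 comparisons OlaR libraries lay above the parental ones. Over all treatments the parental range (69.4 to 248) overlapped the OlaR range (174 to 331), through the parental libraries under 4 µM CDDP alone (201 to 248).

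The multidrug resistance-associated pumps went the other way. ABCC1 (chr16:15949138-16143257, plus strand, 31 exons), which exports glutathione conjugates, stood at 200, 255 and 131 in untreated, 189, 220 and 179 in olaparib-treated and 96.6, 86.6 and 73.6 in OlaR libraries. It was lower in OlaR than in olaparib-treated cells by a log2 difference of -1.19 ± 0.20 (adjusted p = 1.13e-05), and over all treatments the parental range (130 to 260) did not meet the OlaR range (65.9 to 107). ABCC2 (chr10:99782640-99852594, plus strand, 32 exons), which exports platinum bound to glutathione among other conjugates, stood at 74.6, 59.1 and 89.8 in untreated and at 94.5, 72.7 and 93.9 in olaparib-treated libraries. In OlaR libraries it stood at 33.2, 40.5 and 34, a log2 difference of -1.25 ± 0.26 (adjusted p = 2.21e-04). ABCC3 (chr17:50634777-50692253, plus strand, 31 exons), a pump for glucuronides and bile salts, had a 3-step order. Its values were 523, 519 and 569 in untreated, 240, 252 and 241 in olaparib-treated and 144, 110 and 83.5 in OlaR libraries. OlaR cells were below olaparib-treated cells by -1.15 ± 0.17 (adjusted p = 9.49e-07) and below untreated cells by -2.28 ± 0.17 on the log2 scale, which is 4.85-fold (adjusted p = 3.04e-13). Over all treatments its parental range (128 to 569) overlapped the OlaR range (83.5 to 144), through parental libraries under 4 µM CDDP (128 to 145). ABCC4 (chr13:95019835-95301475, minus strand, 31 exons), which exports cyclic nucleotides and nucleotide analogues, stood at 309, 301 and 234 in untreated, 209, 173 and 207 in olaparib-treated and 135, 182 and 155 in OlaR libraries. It fell against untreated cells (log2 difference -0.83 ± 0.16, adjusted p = 3.65e-05), while against olaparib-treated cells the difference of -0.32 had an adjusted p of 0.0907 and the groups overlapped.

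**Figure D1:**
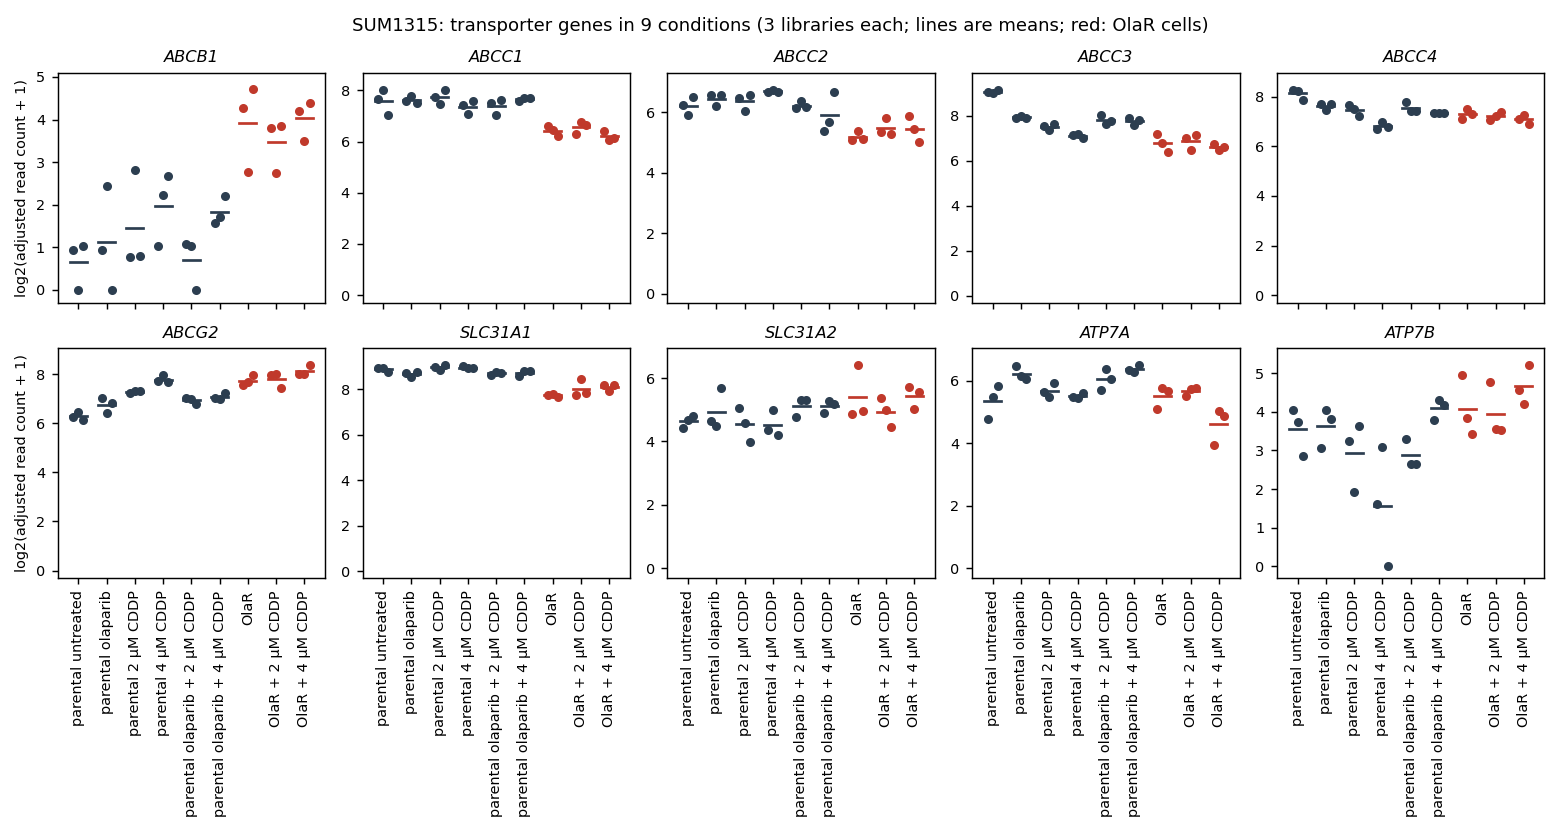
Log2(adjusted read count + 1) of the 10 genes in the 27 SUM1315 libraries, with 1 panel per gene, the 9 conditions on the horizontal axis, a point for each library (parental dark, OlaR red) and a line at the mean of 3. For ABCB1 the OlaR conditions lie at the high end, for ABCG2 they share it with parental 4 µM CDDP (201 to 248 adjusted counts), and for ABCC1 and SLC31A1 they lie at the low end. For ABCC3 they share the low end with parental 4 µM CDDP (128 to 145 adjusted counts).

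Among the copper transporters, the importer SLC31A1 (chr9:113221544-113264492, plus strand, 5 exons) was lower in OlaR SUM1315 cells. It stood at 494, 490 and 435 adjusted counts in untreated, 425, 375 and 429 in olaparib-treated and 213, 220 and 202 in OlaR libraries. The log2 difference was -0.95 ± 0.13 against olaparib-treated cells (adjusted p = 2.72e-07) and -1.16 ± 0.13 against untreated cells (adjusted p = 3.49e-09). Over all treatments the 18 parental libraries ranged from 375 to 536 and the 9 OlaR libraries from 202 to 345, with no overlap. SLC31A2 (chr9:113150976-113164140, plus strand, 4 exons), the related CTR2 that handles copper of internal compartments, stood at 20.5, 24.8 and 26.9 in untreated and 24.1, 21.6 and 50 in olaparib-treated libraries. Its OlaR libraries held 27.9, 84.6 and 30.1, with 1 library far above the other 2, and the log2 difference from olaparib-treated cells of 0.47 had an adjusted p of 0.321. Against untreated cells it was 0.77 (adjusted p = 0.083), which passed by edgeR and DESeq2 (1.02 to 1.03, adjusted p from 0.0279 to 0.0394) and without OlaR replicate 1 (0.0358) or 3 (0.0477), and stood at 0.27 (0.589) without replicate 2, the high library. All 1392 bases of its last exon lie within exons of FKBP15 on the opposite strand. FKBP15 itself was lower in OlaR than in olaparib-treated SUM1315 cells (75.7 against 164, log2 difference -1.1, adjusted p = 3.97e-06), and since the strand used in counting is not given in the sources used here, reads of the pair cannot be told apart.

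The copper ATPases gave less clear differences. ATP7A (chrX:77910690-78050395, plus strand, 23 exons), which loads copper into enzymes and exports it, stood at 26.4, 43.4 and 55.7 in untreated, 87.1, 70.5 and 66 in olaparib-treated and 33.2, 53.7 and 50.3 in OlaR libraries. OlaR libraries lay below the olaparib-treated ones (log2 difference -0.71 ± 0.28, adjusted p = 0.0342) and within the untreated ones (0.16, adjusted p = 0.657). The first call was lost without OlaR replicate 1 (-0.50, adjusted p = 0.188), without olaparib replicate 1 (adjusted p = 0.129) or without olaparib replicate 2 (adjusted p = 0.0576), and also with no filter (0.0713) and by edgeR with DESeq2 size factors (0.0505). ATP7B (chr13:51930436-52012125, minus strand, 21 exons), the liver-type copper exporter, stood at 15.5, 12.4 and 6.28 in untreated, 7.34, 15.6 and 13 in olaparib-treated and 29.9, 13.4 and 9.64 in OlaR libraries. These groups overlapped, and the log2 difference from olaparib-treated cells of 0.43 had an adjusted p of 0.579.

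Against untreated parental cells, 7 members again changed, 2 upward and 5 downward, with ABCC4 in the place of ATP7A (8 by edgeR or DESeq2, with SLC31A2), beside 54.7% of all genes (26% upward and 28.7% downward). Under the higher CDDP dose, with OlaR cells set against parental cells under olaparib and 4 µM CDDP, 6 members changed (2 upward, 4 downward) beside 44.8% of all genes (19.9% upward and 24.9% downward). ABCB1 was higher by 2.19 ± 0.71 on the log2 scale (adjusted p = 0.0117), a read ratio of 5.96 (2.8 to 14.1, 34 against 9 reads). ABCG2 was higher by 1.06 (adjusted p = 4.8e-06), ABCC1 lower by a log2 difference of -1.48 (adjusted p = 3.18e-07) and ABCC3 by -1.16 (adjusted p = 9.09e-07). SLC31A1 differed by -0.63 ± 0.13 (adjusted p = 1.49e-04). ATP7A was 3.38-fold lower, a log2 difference of -1.76 ± 0.28 (adjusted p = 4.02e-06), with parental values of 79.4, 77.4 and 90.3 and OlaR values of 14.5, 31.7 and 28.4. ABCC2, with parental values of 40.7, 50.3 and 101 and OlaR values of 57.3, 42.4 and 31.5, overlapped between the groups (log2 difference -0.47, adjusted p = 0.15). The OlaR difference was also averaged over no, lower and higher CDDP, a step chosen after the values were seen. With 9 libraries on each side, 8 members passed beside 64.2% of all genes. Those were the 7 named for olaparib-treated cells and ABCC4 (log2 difference -0.3, adjusted p = 0.00499). ATP7A then stood at -0.95 (adjusted p = 4.76e-06), and SLC31A2 (0.2, adjusted p = 0.444) and ATP7B (0.69, adjusted p = 0.0744) did not pass.

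MDA-MB-468 cells gave another set of genes. Only 7 members passed the filter, since ABCB1, ABCC2 and ABCG2 had almost no reads in this line. ABCB1 had 11 reads over 7 of the 18 parental libraries and none in the 9 OlaR libraries. ABCC2 had 24 reads in 10 parental libraries, 6 at most in any of them, and 2 reads in 1 OlaR library. ABCG2 had 7 reads in 3 parental libraries and 4 reads in 2 OlaR libraries. Between OlaR and olaparib-treated parental cells 3 of the 7 changed, 1 upward and 2 downward, beside 51.5% of 13012 genes tested (23.6% upward and 27.9% downward). ATP7B is counted among the 2 downward here and in the other OlaR comparisons of this line, although it entered the fit only through parental libraries. The members' median log2 difference was 0.0014 and that of all genes was -0.03.

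ABCC4, the cyclic nucleotide pump, was the member that rose. It stood at 10.4, 18.9 and 18.6 adjusted counts in untreated, 21.4, 35.4 and 13.7 in olaparib-treated and 104, 111 and 103 in OlaR libraries. The OlaR mean was 106 ± 4.5 (SD, n = 3) against 23.5 ± 11 under olaparib, a log2 difference of 2.23 ± 0.33, or 4.68-fold (adjusted p = 1.21e-07). Against untreated cells the difference was 6.52-fold (log2 difference 2.71 ± 0.33, adjusted p = 9.13e-10). With 1 µM CDDP OlaR libraries held 72.5, 107 and 84.8, and with 2.5 µM they held 53, 60.6 and 65.8. All 9 OlaR libraries (53 to 111) lay above all 18 parental libraries (8.2 to 35.4), and under the higher CDDP dose the log2 difference was 2.11 (adjusted p = 3.49e-07).

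ATP7B and SLC31A2 fell. ATP7B stood at 23.9, 18 and 25.2 in untreated, 36.4, 15.1 and 22.3 in olaparib-treated and 3.81, 7.3 and 8.32 in OlaR libraries, where it had 16 reads in all. The log2 difference from olaparib-treated cells was -1.75 ± 0.41, or 3.35-fold (adjusted p = 3.06e-04), and from untreated cells -1.68 (adjusted p = 4.65e-04). Parental libraries under all treatments ranged from 8.86 to 36.4 and OlaR libraries from 3.81 to 14.4, so the ranges overlapped at their edges. The OlaR libraries without CDDP held 3 to 7 reads each, where 3 reads correspond to 3.58 to 3.68 adjusted counts. ATP7B reached a value of at least 10 in 17 parental libraries and 1 OlaR library, and so passed the filter on low values only through parental cells. Its differences and p-values in the OlaR comparisons of this line are therefore a description rather than a test. SLC31A2 stood at 60.6, 55.1 and 63.9 in untreated, 44.4, 50.1 and 34.8 in olaparib-treated and 28.6, 32.6 and 18.8 in OlaR libraries. OlaR was lower by a log2 difference of -0.69 ± 0.23 against olaparib-treated cells (adjusted p = 0.00921) and of -1.17 against untreated cells (adjusted p = 2.14e-05). The first of these calls was lost without OlaR replicate 3 (-0.47, adjusted p = 0.112) or without olaparib replicate 2 (-0.58, adjusted p = 0.0554). FKBP15, which shares the last exon of SLC31A2 on the other strand, had a log2 difference of -0.23 here (adjusted p = 0.186).

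The remaining members of MDA-MB-468 showed small or no differences between OlaR and olaparib-treated cells. SLC31A1 stood at 324, 302 and 312 in olaparib-treated and 335, 369 and 362 in OlaR libraries, which do not overlap, with a log2 difference of 0.18 (adjusted p = 0.0794). ABCC3 stood at 39.4, 33.9 and 47.2 against 57.4, 65.7 and 49 (0.51, adjusted p = 0.0578). Both passed by edgeR and by DESeq2 on the recovered reads. ABCC1 (-0.07, adjusted p = 0.808) and ATP7A (0.0014, adjusted p = 0.995) overlapped between the groups. ATP7A kept to a narrow span in this line, 110 to 149 in parental and 106 to 142 in OlaR libraries. Against untreated cells the same 3 members passed as against olaparib-treated cells, beside 53.5% of all genes (26% upward and 27.5% downward). Under the higher CDDP dose 5 members passed (3 upward, 2 downward) beside 52.5% of all genes (23.6% upward and 28.9% downward). ABCC4, ABCC3 (0.79, adjusted p = 0.00288) and SLC31A1 (0.21, adjusted p = 0.0441) were higher, and ABCC1 (-0.86, adjusted p = 0.00104) and ATP7B (-1.52, adjusted p = 0.00152) were lower. The call for SLC31A1 was lost without any of the 3 OlaR libraries or without parental replicate 2, with adjusted p from 0.0738 to 0.217. SLC31A2 stood at 60.6, 56 and 57.6 in parental and 60.8, 51.2 and 63.5 in OlaR cells at this dose (0.0058, adjusted p = 0.985). Averaged over no, lower and higher CDDP, ABCC1, ABCC3, ABCC4, SLC31A1 and ATP7B passed beside 68.9% of all genes, and SLC31A2 (-0.27, adjusted p = 0.0677) and ATP7A (-0.16, adjusted p = 0.0587) did not. This average was likewise chosen after the values were seen.

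**Figure D2:**
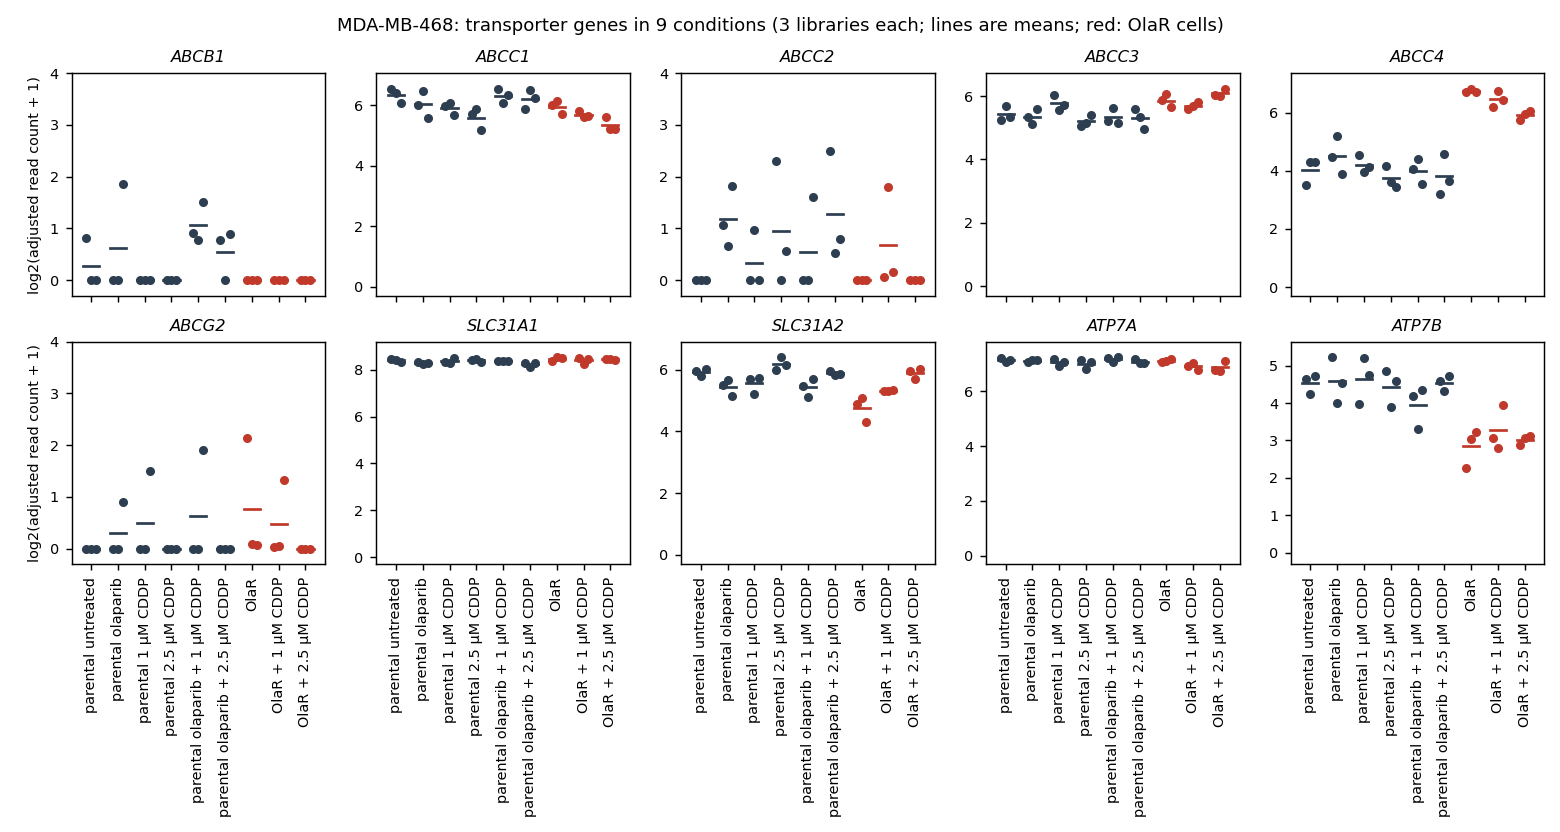
Log2(adjusted read count + 1) of the 10 genes in the 27 MDA-MB-468 libraries, with 1 panel per gene, the 9 conditions on the horizontal axis, a point for each library (parental dark, OlaR red) and a line at the mean of 3. In ABCC4 the OlaR libraries (53 to 111 adjusted counts) lie above the parental ones (at most 35.4), and ABCB1, ABCC2 and ABCG2 lie near 0 throughout.

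The OlaR difference from olaparib-treated cells was then compared between the lines in a joint fit of all 54 libraries (14460 genes). For 8 of the 10 members the 2 lines differed, beside 41.7% of all genes (20.3% with the higher value in SUM1315 and 21.4% with the lower). SUM1315 gave the more positive OlaR difference for ABCB1 (by 3.41 ± 0.77 on the log2 scale, adjusted p = 3.59e-04), ATP7B (2.17 ± 0.72, adjusted p = 0.013) and SLC31A2 (1.16 ± 0.44, adjusted p = 0.0299). MDA-MB-468 gave the more positive one for ABCC4 (-2.55 ± 0.37, adjusted p = 2.23e-07), ABCC3 (-1.65 ± 0.25, adjusted p = 6.81e-07), SLC31A1 (-1.13 ± 0.15, adjusted p = 2.34e-08), ABCC1 (-1.11 ± 0.31, adjusted p = 0.00299) and ATP7A (-0.71 ± 0.29, adjusted p = 0.0467). ABCB1 entered this fit only through the OlaR SUM1315 libraries in which it is high, its value rests on a line with no OlaR read, and its size depends on the constant added before the log. The ATP7A call was lost without any 1 of 9 of the 12 libraries compared (adjusted p from 0.0548 to 0.186), that of SLC31A2 without any of 6 (0.0518 to 0.212) and that of ATP7B without SUM1315 OlaR replicate 1 (0.0607). For ABCC2 (-0.07, 95% interval -1.42 to 1.28) and ABCG2 (0.52, -0.66 to 1.7) the intervals were wide, and MDA-MB-468 had hardly any reads of either. With a pseudocount of 5 in place of 1 the ABCG2 difference was 0.78 (adjusted p = 0.0215). Both genes entered this fit only through SUM1315 libraries, so their values here are a description rather than a test.

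**Figure D3:**
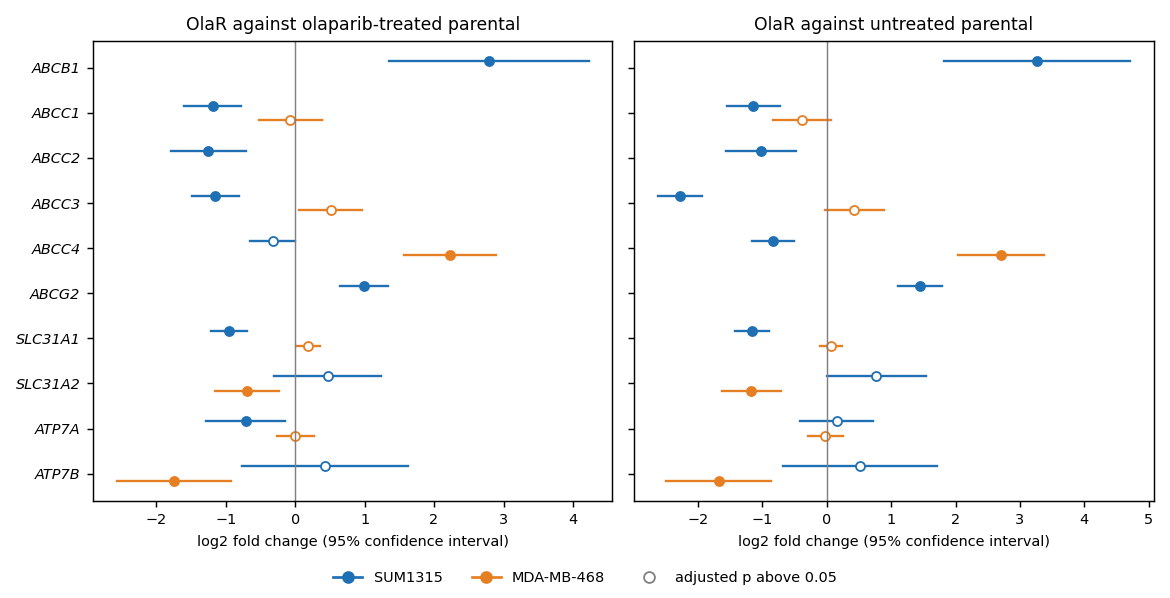
Log2 differences between OlaR and olaparib-treated (left) or untreated (right) parental cells for the members tested in SUM1315 (blue) and MDA-MB-468 (orange), with 95% confidence intervals from the limma fit and open circles where the adjusted p was above 0.05. ABCB1 and ABCG2 lie above 0 and ABCC1 and ABCC3 below 0 in SUM1315, and in MDA-MB-468 ABCC4 lies above 0 and ATP7B below 0.

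The lines also differed before any drug. Between untreated SUM1315 and untreated MDA-MB-468 cells 8 of 10 members differed, 6 higher and 2 lower in SUM1315, beside 72.7% of all genes (35.8% higher and 36.9% lower). ABCC3 was 12.5-fold and ABCC4 17.1-fold higher in SUM1315 (means of 537 ± 27.9 against 42.3 ± 6.79 and of 281 ± 41.4 against 16 ± 4.82, SD, n = 3, adjusted p = 3.49e-23 and 6.29e-19). ABCC2 (74.5 ± 15.4) and ABCG2 (77.2 ± 8.25) had no read in the untreated MDA-MB-468 libraries, so that they were at least 105-fold and at least 108-fold higher in SUM1315, against a floor of 3 reads over the group. Both entered the joint fit only through SUM1315 libraries, in which they are high, so their place among the 6 is a description rather than a test. ABCC1 was higher by 1.22 on the log2 scale (adjusted p = 2.79e-06) and SLC31A1 by 0.47 (adjusted p = 8.56e-05). ATP7A was 3.41-fold lower in SUM1315 (41.9 ± 14.7 against 139 ± 8.44, adjusted p = 2.19e-10) and SLC31A2 2.44-fold lower (24.1 ± 3.24 against 59.9 ± 4.45, adjusted p = 2.89e-04). ATP7B stood at 11.4 ± 4.68 against 22.3 ± 3.83 (adjusted p = 0.0801), and ABCB1 had 2 reads against 1 (adjusted p = 0.541). Thus the pump that rose in OlaR MDA-MB-468 cells, ABCC4, reached a mean of 106 there, below the 281 of untreated SUM1315 cells, with no test made across those groups.

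Olaparib or CDDP alone also moved several of these genes in parental SUM1315 cells, in which all drug comparisons share the untreated libraries. Olaparib changed 4 members, 2 upward and 2 downward, beside 36% of all genes (18.9% upward and 17.1% downward). ABCC3 fell (log2 difference -1.13, adjusted p = 2e-06), as did ABCC4 (-0.51, adjusted p = 0.011), and ABCG2 (0.46, adjusted p = 0.032) and ATP7A (0.87, adjusted p = 0.0138) rose. Only the ABCC3 call held without each library in turn, and the calls lost were those of ABCC4 without untreated replicate 1 or olaparib replicate 2, of ATP7A without untreated or olaparib replicate 1, and of ABCG2 without untreated or olaparib replicate 1 or 3 (adjusted p from 0.0583 to 0.186).

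CDDP at 2 µM changed 3 members beside 33.9% of all genes, and at 4 µM it changed 4 beside 43.9%. ABCC3 stood at 188, 164 and 195 under 2 µM and at 141, 145 and 128 under 4 µM, against 519 to 569 in untreated cells (log2 differences -1.56 and -1.95, adjusted p = 7.59e-09 and 2.62e-11). ABCC4 stood at 202, 178 and 149 and then at 102, 125 and 108, against 234 to 309 (-0.67 and -1.32, adjusted p = 0.00115 and 2.84e-08). ABCG2 stood at 149, 156 and 157 and then at 210, 248 and 201, against 69.4 to 85.8 (1.00 and 1.5, adjusted p = 2.25e-05 and 1.06e-08). Over no, lower and higher dose the values fell for ABCC3 and ABCC4 and rose for ABCG2, without overlap. The share of all genes with such an order was not counted, so nothing particular to these genes is read from it. The step from 2 to 4 µM was not tested. ATP7B fell under 4 µM (2.07, 7.52 and 0 adjusted counts, from 2, 8 and 0 reads, log2 difference -1.98, adjusted p = 0.00652), but without replicate 3 of that dose, the library with no read, the difference was -1.2 (adjusted p = 0.103).

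When CDDP was added to olaparib, 0 of the 10 members passed at either dose by limma, edgeR or DESeq2, and 0 had an unadjusted p under 0.05, beside 3.76% of all genes at 2 µM and 8.44% at 4 µM. ABCC3 then stood at 258, 196 and 216 with 2 µM and at 236, 192 and 222 with 4 µM, beside 240 to 252 under olaparib alone. ABCG2 stood at 128, 126 and 109 and at 129, 125 and 149, beside 83.5 to 128. ABCC3 with 4 µM lay just below olaparib alone, and the other sets overlapped it. Adding olaparib to 4 µM CDDP changed 6 members, 4 upward and 2 downward, beside 12.8% of all genes (6.32% upward and 6.52% downward). ABCC3 (0.65, adjusted p = 0.00802), ABCC4 (0.53, adjusted p = 0.0232), ATP7A (0.87, adjusted p = 0.0345) and ATP7B (2.53, adjusted p = 0.00342) were higher with olaparib, and ABCG2 (-0.71, adjusted p = 0.00454) and ABCC2 (-0.79, adjusted p = 0.0434) were lower. With ABCC3, ABCC4 and ABCG2 the value with both drugs lay between that of 4 µM CDDP alone and that of untreated cells. The count was 2 to 4 when any 1 of the 6 libraries was left out, and ABCC3 and ABCG2 were the members that passed each time. ABCC2 was lost without 5 of the libraries (adjusted p from 0.0934 to 0.264) and with the replicate number as a block (0.0501), ABCC4 without 5 (0.0562 to 0.101), ATP7A without any of them (0.0642 to 0.118) and ATP7B without CDDP replicate 3 (1.74, adjusted p = 0.0551). ABCC2 did not pass by edgeR (0.0654 and 0.066) or DESeq2 (0.0568) either, and these tools each gave 5 members. With no filter, ABCC2 (0.116) and ATP7A (0.0803) were lost.

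**Figure D4:**
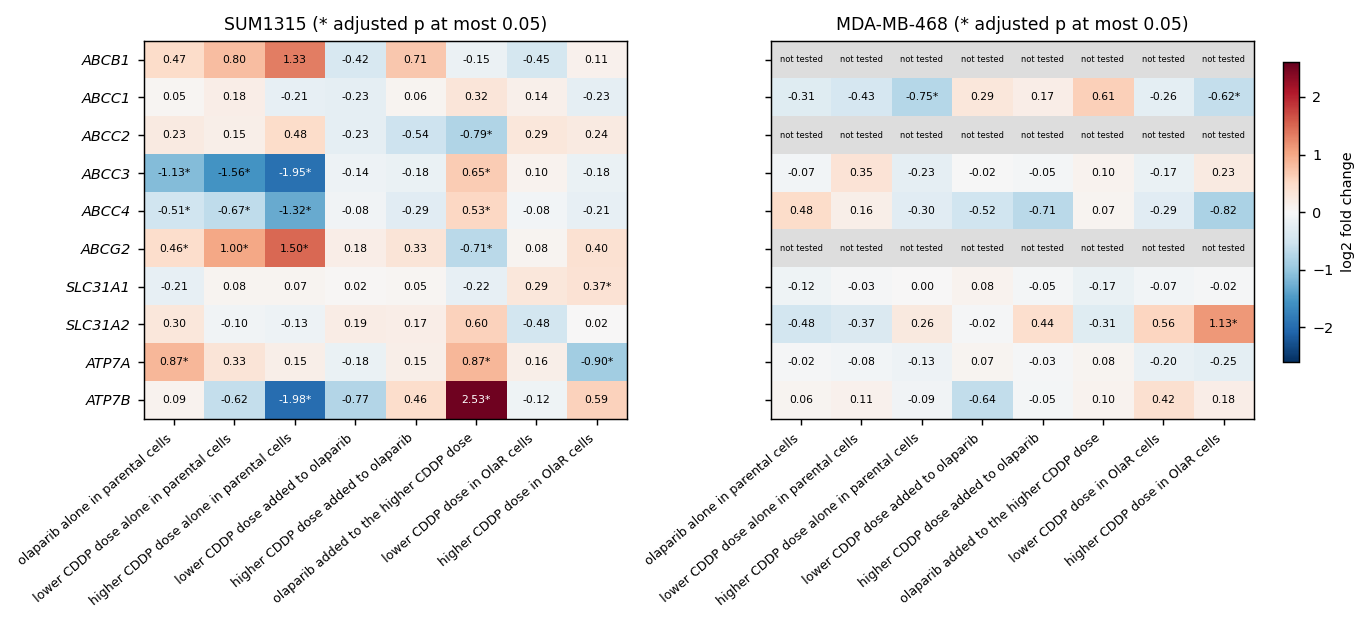
Log2 differences of the members (rows) in 8 drug comparisons (columns) in SUM1315 (left) and MDA-MB-468 (right), coloured from blue (lower) to red (higher), with an asterisk where the adjusted p was at most 0.05 and grey where a gene was not tested. In parental SUM1315 cells ABCC3 and ABCC4 were lower and ABCG2 higher under CDDP alone, and no member has an asterisk where CDDP was added to olaparib.

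In OlaR SUM1315 cells 2 µM CDDP changed 0 of 10 members by limma, edgeR or DESeq2 (1, SLC31A1, at an unadjusted p under 0.05), beside 1.42% of all genes. At 4 µM limma passed 2 members beside 16.7% of all genes: SLC31A1 rose (213, 220 and 202 to 293, 243 and 289, log2 difference 0.37, adjusted p = 0.0424) and ATP7A fell (-0.90, adjusted p = 0.0236). Neither passed by edgeR, with adjusted p from 0.0684 to 0.0838, and DESeq2 passed ATP7A alone. SLC31A1 was lost without any of the 3 OlaR libraries or CDDP replicate 1 or 3 (adjusted p from 0.0686 to 0.151), and ATP7A without OlaR replicate 2 or 3 or CDDP replicate 1 (0.0849 to 0.214). The effect of 4 µM CDDP on olaparib-exposed cells differed between OlaR and parental cells for 0 members by limma, edgeR or DESeq2 (6.4% of all genes), with ABCC2 (0.78, adjusted p = 0.224) and ATP7A (-1.04 ± 0.39, adjusted p = 0.106) at an unadjusted p under 0.05.

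In parental MDA-MB-468 cells the drugs moved fewer members. Olaparib changed 0 of 7 by limma, edgeR or DESeq2 (1, SLC31A2, at an unadjusted p under 0.05) beside 21.5% of all genes, and 1 µM CDDP changed 0, with 0 at an unadjusted p under 0.05, beside 20% of all genes. CDDP at 2.5 µM lowered ABCC1 (92.2, 85.1 and 66.1 to 51.4, 57.8 and 35.7, log2 difference -0.75, adjusted p = 0.00945) beside 25.1% of all genes, a call lost without untreated replicate 1 (adjusted p = 0.0588) or CDDP replicate 3 (0.105). Added to olaparib, CDDP changed 0 members at either dose by the 3 tools, beside 5.26% of all genes at 1 µM, where 0 had an unadjusted p under 0.05, and 23.1% at 2.5 µM, where 1, ABCC4, had. Olaparib added to 2.5 µM CDDP changed 0 members by limma (11.9% of all genes, with ABCC1 at an unadjusted p under 0.05), while edgeR and DESeq2 each passed ABCC1 (log2 difference 0.61 by DESeq2, adjusted p = 0.031).

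SLC31A2, the internal copper transporter, rose with 2.5 µM CDDP in OlaR MDA-MB-468 cells. Its values were 28.6, 32.6 and 18.8 without CDDP, 38.3, 38.5 and 39.3 with 1 µM and 60.8, 51.2 and 63.5 with 2.5 µM, with no overlap between these groups. The log2 difference at 2.5 µM was 1.13 ± 0.23, or 2.2-fold (adjusted p = 1.93e-04), and FKBP15 stood at -0.04 (adjusted p = 0.892) in the same comparison. ABCC1 also fell at this dose (-0.62, adjusted p = 0.0453), so that 2 of 7 members changed beside 18.7% of all genes, but it did not pass by edgeR or DESeq2 (adjusted p from 0.1 to 0.102) or without OlaR replicate 1 or 2 or CDDP replicate 2 or 3 (0.109 to 0.174). ABCC4 stood at -0.82 (adjusted p = 0.0744 by limma) and passed by edgeR and DESeq2 (0.0195 to 0.0276). CDDP at 1 µM changed 0 members in OlaR cells by the 3 tools (4.76% of all genes, with SLC31A2 at an unadjusted p under 0.05). The difference between OlaR and parental cells in the effect of 2.5 µM CDDP passed for 0 members by the 3 tools (15% of all genes), with SLC31A2 (0.70, adjusted p = 0.146) and ABCC1 (-0.79, adjusted p = 0.0849) at an unadjusted p under 0.05.

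Other transport genes were counted in 4 lists for OlaR against olaparib-treated parental cells, in which 21.6% of all genes tested rose and 25.7% fell in SUM1315, and 23.6% and 27.9% in MDA-MB-468. Nothing particular to a list is read from its counts. The genes named were picked from these same data, as those of smallest p among genes called at 2-fold whose libraries did not overlap, so their values are a description. Of 16 copper handling genes, such as copper chaperones and metal reductases, 14 were tested in each line. In SUM1315 3 rose and 5 fell, and in MDA-MB-468 5 rose and 3 fell. STEAP3, a metal reductase, fell in MDA-MB-468 (69.9 ± 2.62 against 163 ± 18.1, log2 difference -1.2, adjusted p = 1.99e-09). Of 13 other platinum and drug carriers, 1 rose and 4 fell among 10 tested in SUM1315, and 5 rose and 2 fell among 9 in MDA-MB-468. SLC47A1, the exporter MATE1, fell in SUM1315 from 36.5 ± 6.51 to 2.76 ± 0.8 (log2 difference -3.33 ± 0.44, adjusted p = 1.51e-07). That OlaR mean lies below the 4.67 to 5.2 adjusted counts to which 3 reads correspond in those libraries, so the size of the fall depends on few reads and on the constant added before the log.

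Of 14 transcription regulators of transporters, 1 rose and 6 fell among 12 tested in SUM1315, and 6 rose and 4 fell among 11 in MDA-MB-468. FOXO1 rose (110 against 53, log2 difference 1.04, adjusted p = 0.00107) and TWIST1 fell (19.1 against 51.7, -1.5, adjusted p = 0.00153) in SUM1315, and HIF1A fell in MDA-MB-468 (36.7 against 88.5, -1.25, adjusted p = 1.65e-06). Of 42 other ABC transporters, 6 rose and 4 fell among 31 tested in SUM1315, and 7 rose and 11 fell among 25 in MDA-MB-468. In SUM1315 ABCA5 rose (41.6 against 3.05, 3.5, adjusted p = 1.44e-05), and ABCA1, which exports cholesterol (270 against 658, -1.27, adjusted p = 5e-09), ABCA3, a lipid transporter of lung surfactant (8.83 against 70.1, -3.45, adjusted p = 3.44e-07), and ABCA6 (8.19 against 30.4, -1.76, adjusted p = 3.24e-04) fell. The parental ABCA5 mean of 3.05 lies near the 2.56 to 3 adjusted counts to which 3 reads correspond there, so the size of its rise depends on few reads. In MDA-MB-468 ABCB9 (66.2 against 151), ABCB10 (42.4 against 91.7) and ABCA2 (37.2 against 16.7) changed by log2 differences of -1.2, -1.1 and 1.2 (adjusted p = 4.46e-07, 1.36e-05 and 0.0064). The lists' median log2 differences lay between -0.28 and -0.031 in SUM1315 and between -0.21 and 0.36 in MDA-MB-468, beside -0.045 and -0.03 for all genes.

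Genes next to the members were read for OlaR against olaparib-treated parental cells, with 5 on each side, beside the same shares of all genes. Around ABCB1, 9 of 10 neighbours were tested and 2 rose, a share near the 21.6% of all genes, CROT (0.62, adjusted p = 0.00308) and SRI (0.55, adjusted p = 0.0109), both by less than ABCB1. Around ABCC1, 3 were tested and 2 fell, NDE1 (-0.98, adjusted p = 2.48e-07) and MARF1 (-1.11, adjusted p = 1.34e-08), values near the -1.19 of ABCC1. Around ABCC2, 1 of 7 fell (CUTC, -0.54, adjusted p = 0.023), and the 4 tested around ABCC3 had adjusted p from 0.16 to 0.79. In MDA-MB-468, DZIP1 rose (0.60, adjusted p = 1.08e-04), DNAJC3 fell (-0.44, adjusted p = 1.09e-04) and GPR180 stood at 0.0053 (adjusted p = 0.969) beside ABCC4, and the 6 genes tested beside ATP7B had adjusted p from 0.116 to 0.848.

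Genes whose means over a line's 9 conditions were most like a member's were picked out by Pearson's r over 11187 to 11210 genes, as a description across conditions that share their parental and OlaR cells. For ABCB1 in SUM1315 they were UTP3 (0.993), KIAA0100 (0.984) and CRLF3 (0.983). They were FOXJ2 (0.987), COL5A2 (0.986) and DENND5A (0.984) for ABCC1, RP9P (0.974), DHX35 (0.973) and UBE2F (0.972) for ABCC2, and TRIM66 (0.986), SECISBP2 (0.985) and ITGA2 (0.981) for ABCC3. For ABCC4 in MDA-MB-468 they were SEM1 (0.995), TMEM30A (0.994) and TEKT4P2 (0.992), and for ATP7B ERMAP (0.984), ZKSCAN8 (0.983) and PCNX4 (0.982). With 9 points each, so close a likeness can be found for some gene when so many are compared, and no relation between the genes was tested.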

How the data were processed

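Libraries were made by the authors with the QuantSeq 3′ FWD kit and read as 50 bp reads, and the submitters' processing notes name CASAVA 1.8.2, FastQC, STAR, HTSeq, edgeR and hg38. The deposited table holds a depth-adjusted signal for each gene and library. The authors made it from gene counts with edgeR by adjusting to a common size shared by all libraries, based on the means of each condition. The authors' own tables of log2 fold changes, p-values and false discovery rates against untreated parental cells were not used. Whole reads were recovered from the deposited values (100% of 1483380 values were given back within 1e-06) and served the alternatives and the counting intervals.

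Groups followed the sample titles. The main test was limma 3.58.1 (R 4.3.3, trend) on log2(value + 1), per line with 27 libraries and 9 groups, or with all 54 libraries for comparisons of lines, since the deposited values were not whole. A gene was tested if 3 or more libraries held 10 or more adjusted counts, and the Benjamini-Hochberg adjustment ran over every gene tested. Fold changes are on the log2(value + 1) scale, which understates changes of low genes. The scripts were tested on simulated data. Alternatives used edgeR 4.0.16 and DESeq2 1.42.0 on the recovered reads, a pseudocount of 5, no filter, a 2-fold limit, other sample sets and each library left out.

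The members and the 4 lists of other genes were chosen with earlier results of these data known. Beyond the members, the text names, for each list and line, at most 4 genes called at 2-fold, and for the members that changed by 2-fold, 5 neighbours on each side and the 3 genes most alike in pattern. ABCB1, ABCC2 and ABCG2 in MDA-MB-468 failed the filter and are given as reads. Replicate numbers did not pair libraries. Libraries of a condition differed by more than sampling noise, so none was counted as a duplicate. Positions are from GENCODE 44 and promoter windows from RefSeq.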

Additional observations from a re-analysis of the deposited data

Results flagged for a closer look

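The difference in the OlaR effect between the lines (SUM1315 minus MDA-MB-468, OlaR against olaparib-treated parental cells, log2 scale, limma) passed for 8 members, beside 41.7% of all 14460 genes tested. These were ABCB1 (3.41), ATP7B (2.17), SLC31A2 (1.16), ATP7A (-0.71), ABCC1 (-1.11), SLC31A1 (-1.13), ABCC3 (-1.65) and ABCC4 (-2.55). The calls of ATP7A and SLC31A2 were each lost when single libraries were left out, and that of ATP7B without SUM1315 OlaR replicate 1 (adjusted p = 0.0607). ABCB1 entered the fit only through the OlaR SUM1315 libraries in which it is high, and OlaR MDA-MB-468 libraries had 0 reads of it, so its value is a description rather than a test. For ABCC4 the values were -0.32 in SUM1315 (adjusted p = 0.0907) and 2.23 in MDA-MB-468 (adjusted p = 1.21e-07). For ATP7B the values were 0.43 (adjusted p = 0.579) and -1.75 (adjusted p = 3.06e-04), the second of them a description rather than a test. SLC31A1 stood at -0.95 (adjusted p = 2.72e-07) and 0.18 (adjusted p = 0.0794). The olaparib doses also differed between the lines, and they cannot be told apart from the line. With 3 libraries in each condition, no check for a single outlying library was made within a condition.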

How the results depend on the processing

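No member that passed changed sign under an alternative or without a library, and among all members 112 of 1506 values changed sign without a library and 20 of 1795 under other settings. Among single members, 1716 of 1795 values kept their side of the threshold under other settings and 1428 of 1506 without a library. Counts of members that passed moved as follows. For most of them no share of all genes at the same setting is given, so nothing particular to the members is read from them. The same holds for the counts without a library further below. With a fold limit of 2, SUM1315 gave 4 for OlaR against olaparib-treated cells (beside 16.6% of all genes), 1 for olaparib alone, 1 for lower CDDP alone, 1 for olaparib added to higher CDDP and 0 for higher CDDP in OlaR cells. MDA-MB-468 gave 2 for OlaR under higher CDDP, 0 for higher CDDP alone and 1 for higher CDDP in OlaR cells. For higher CDDP in OlaR SUM1315 cells the count was 0 with no filter and by edgeR under both scalings, and 1 by DESeq2 (ATP7A) and in a fit of only the groups compared (ABCG2). In MDA-MB-468, OlaR against olaparib-treated cells gave 5 by edgeR (both scalings), by DESeq2 and by the mean over 3 CDDP doses, which was chosen after seeing the data. Olaparib added to higher CDDP gave 1 by edgeR (both scalings) and DESeq2, and higher CDDP in OlaR cells gave 1 with no filter.

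Leaving out each library gave 1 to 4 members for olaparib alone, 0 to 1 for higher CDDP added to olaparib, 2 to 4 for olaparib added to higher CDDP and 0 to 2 for higher CDDP in OlaR cells in SUM1315. In MDA-MB-468 it gave 0 to 1 for higher CDDP alone, 0 to 1 for higher CDDP added to olaparib, 0 to 1 for olaparib added to higher CDDP, 1 to 2 for higher CDDP in OlaR cells and 0 to 1 for its interaction with OlaR. Same-numbered libraries did not deviate together (correlations from -0.098 to 0.163 in SUM1315 and from -0.047 to 0.043 in MDA-MB-468), so the numbers do not pair them. A replicate block changed 1 call, ABCC2 for olaparib added to higher CDDP in SUM1315 (adjusted p = 0.0501). In fits of only the groups compared, ABCB1 did not pass the filter where no OlaR library under CDDP entered, and has no value there. The cause of these shifts was not tested.

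Counts over all genes moved by over 1.5 times in small comparisons. In SUM1315, 2 µM CDDP added to olaparib gave 494 genes, and 243 with no filter, 789 by DESeq2 and 757 in a fit of only the groups compared. There, 4 µM gave 1108 and 683 with no filter, olaparib added to 4 µM CDDP 1686 and 2697 in the fit of only the groups, 2 µM in OlaR cells 187 and 89 by edgeR (38.5% and 24.7% of them higher, and 26.4% by DESeq2), and the interaction 841 and 469 with no filter. In MDA-MB-468, 1 µM CDDP added to olaparib gave 685, and 400 with no filter and 321 in the fit of only the groups, 1 µM in OlaR cells 619, and 312 with no filter and 377 or 367 by edgeR, and the interaction 1958 and 1274 with no filter. Depth limits ABCB1 in both lines, ABCC2 and ABCG2 in MDA-MB-468 and ATP7B in both, all of which rest on few reads.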
